A study of Rattus norvegicus with 9 samples.

Results

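The genes described here are the nuclear genes of the mitochondrial ribosome and of the mitochondrial protein import machinery, as measured in a small artery of normotensive and hypertensive rats. Mrpl and Mrps name proteins of the mitochondrial ribosome, for the most part of its large and small subunit respectively. Timm and Tomm name the translocases of the inner and outer mitochondrial membrane. Members were all probesets whose platform gene symbol begins with any of these names followed by a number. This rule found 108 probesets for 93 of the 10412 genes with a single symbol on the array. A minimum signal of 44.3 on at least 3 of the 9 arrays was met by 97 probesets of 89 genes: 50 probesets of 44 Mrpl genes, 26 of 26 Mrps genes, 12 of 11 Timm genes and 9 of 8 Tomm genes. No probeset of Mrpl38, Timm44, Timm8a1 or Tomm40l met it, and 1 further probeset that shares several symbols was left out. At the edge of the minimum, the probeset of Timm10b reached 49.4 on at least 3 arrays and was kept, and 1 of Mrpl49 reached 43.8 and was not.

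RNA came from the first side branch of the saphenous artery of male rats aged 16 weeks, and was measured on 9 RAE230A arrays, which hold oligonucleotide probesets directed at the 3' part of rat transcripts. The groups were SHR, the inbred spontaneously hypertensive strain, WKY rats given ACTH (adrenocorticotropic hormone, which raises blood pressure by way of adrenal glucocorticoids) under the skin for 4 weeks at 0.1 mg/kg/day by the labels, and untreated WKY, the normotensive strain, with 3 arrays in each. The ACTH animals were therefore WKY rats as well, while SHR differed from both other groups in strain. The study's methods give a higher ACTH dose than the labels, and groups were set by treatment. A pool of RNA from several rats went onto each array because a single vessel gave little, so that errors are the spread between pools.

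Mitochondria keep a small genome of their own that encodes a few subunits of the respiratory chain, and the mitochondrial ribosome makes only these. All proteins of that ribosome are encoded in the nucleus, made in the cytosol and brought in through the import machinery, in which the TOM complex forms the gate of the outer membrane, the TIM23 complex carries proteins with a presequence into the matrix, the TIM22 complex inserts carrier proteins into the inner membrane, and the small Tim proteins act as chaperones between the membranes. In arteries, energy for contraction comes in part from the respiratory chain of smooth muscle.

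Promoters of these genes are printed because the members share a role and are often described as sharing regulators. The sequences are those of RefSeq for the GRCr8 assembly, which is of a BN rat and neither of SHR nor of WKY. Of the 89 genes measured, 74 had a promoter in the table, 76 promoters in all, each reaching from 250 bases before to 50 bases after the transcription start. A set of 3 motifs was searched on both strands: CGCANGCG for NRF1, CCGGAAG for ETS factors such as GABP, and AAGATGGC for YY1, none of which contains another. The NRF1 letters were found in 20 of 76 member promoters (26.3%), against 7.6% of all 33469 promoters of the same length. The ETS letters were found in 25 (32.9%), against 8.75% of all promoters, and the YY1 letters in 15 (19.7%), against 3.17%. At least 1 of the 3 was present in 46 member promoters (60.5%), against 17.1% of all. A match is a stretch of letters only, and none was tested for binding. The promoters of the 2 genes with a call below, Mrpl4 and Timm22, and that of Mrps18b, which held all 3 motifs, read as follows, with matches in capitals, at chr8:27815521-27815820 (plus strand), chr10:61751436-61751735 (plus strand) and chr20:2842756-2843055 (plus strand) of GRCr8.
Mrpl4: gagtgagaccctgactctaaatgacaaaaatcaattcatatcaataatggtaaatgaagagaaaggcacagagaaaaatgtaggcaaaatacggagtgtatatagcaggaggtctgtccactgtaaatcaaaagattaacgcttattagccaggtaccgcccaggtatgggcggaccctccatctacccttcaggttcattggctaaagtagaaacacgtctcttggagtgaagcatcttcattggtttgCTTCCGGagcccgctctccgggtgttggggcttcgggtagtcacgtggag
Timm22: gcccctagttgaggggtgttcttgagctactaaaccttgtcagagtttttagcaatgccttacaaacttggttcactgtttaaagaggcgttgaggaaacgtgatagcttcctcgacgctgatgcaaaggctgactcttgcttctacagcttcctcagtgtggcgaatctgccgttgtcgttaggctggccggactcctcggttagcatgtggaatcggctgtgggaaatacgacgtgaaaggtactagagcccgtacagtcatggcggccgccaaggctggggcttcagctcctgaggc
Mrps18b: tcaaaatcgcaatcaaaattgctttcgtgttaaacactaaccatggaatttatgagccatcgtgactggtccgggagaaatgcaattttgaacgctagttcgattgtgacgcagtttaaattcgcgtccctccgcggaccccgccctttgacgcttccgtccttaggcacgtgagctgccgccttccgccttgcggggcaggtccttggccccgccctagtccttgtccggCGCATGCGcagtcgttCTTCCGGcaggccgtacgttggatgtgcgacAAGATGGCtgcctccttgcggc
In the Mrpl4 promoter the capitals are an ETS match on the minus strand that begins at the transcription start. The Timm22 window held none of the 3 motifs. In the Mrps18b window the capitals are, from left to right, the NRF1, ETS and YY1 matches.

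Mrpl4, which encodes a protein of the large subunit, had a lower signal in SHR arteries than in both other groups. Of the 2 probesets of Timm22, the pore-forming subunit of the TIM22 complex, 1 had a lower signal in SHR than in WKY. These were the only members past the threshold, an adjusted p under 0.05 in limma with the Benjamini-Hochberg correction over all 9099 probesets kept on the array. Thus 2 of 97 member probesets changed in SHR against WKY, both lower. Over the whole array 2.04% of probesets changed in this comparison and 1.08% were lower, so that the members' share of 2.06% was close to that of all probesets. In ACTH against WKY, 0 of 97 member probesets passed by limma, where 1.21% of all probesets did, and 3 members had an unadjusted p under 0.05. In SHR against ACTH, 1 member passed and was lower, against 3.4% of all probesets called and 1.82% called lower. In the F test over the 3 groups 2 members passed, again Mrpl4 and Timm22, against 4.1% of all probesets.

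Mrpl4 (probeset 1388366_at) had signals of 242, 261 and 284 in SHR, 440, 437 and 491 in ACTH, and 497, 499 and 504 in WKY. Every SHR array lay below every ACTH array, and every ACTH array below every WKY array, with WKY spanning a narrow range. The SHR signal averaged 262 ± 21.1, against 456 ± 30.4 in ACTH and 500 ± 3.39 in WKY (SD, n = 3 each). On the log2 scale SHR was lower than WKY by a fitted difference of -0.93 ± 0.13 (SE; adjusted p = 0.0043), which is 1.91-fold lower, with a 95% interval from -1.22 to -0.65. Against ACTH the SHR difference was -0.80 ± 0.13 (adjusted p = 0.0089), 1.74-fold lower. The ACTH difference from WKY was -0.14 ± 0.13 (adjusted p = 0.748). On the scan day that SHR 1 and SHR 2 shared with WKY 2 the SHR difference was -0.99, and on the day that SHR 3 shared with the ACTH arrays it was -0.68. With scan day as a block, which leaves 3 residual degrees of freedom, neither difference passed (adjusted p = 0.149 for SHR against WKY and 0.242 for SHR against ACTH). Whether SHR and WKY differ in sequence under the probes of Mrpl4 or Timm22 was not tested.

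For Timm22, probeset 1375565_at had signals of 57.9, 60.5 and 75.8 in SHR, 91.6, 95.5 and 105 in ACTH, and 120, 94.1 and 105 in WKY. All SHR arrays lay below all others, while ACTH and WKY arrays overlapped. The SHR difference from WKY was -0.72 ± 0.16 on the log2 scale (adjusted p = 0.0466), 1.65-fold lower, with a 95% interval from -1.06 to -0.37. Against ACTH the SHR difference of -0.59 ± 0.16 did not pass (adjusted p = 0.07), and the ACTH difference from WKY was -0.12 ± 0.16 (adjusted p = 0.821). The call in SHR against WKY was close to the threshold and was lost without SHR 1, SHR 2, WKY 1, WKY 3 or any 1 of the ACTH arrays, where the adjusted p was 0.0757 to 0.147. A fit blocked by scan day also lost it (adjusted p = 0.291). Within the shared scan days the differences were -0.67 for SHR against WKY and -0.36 for SHR against ACTH.

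The other probeset of Timm22 (1370353_at) had signals of 62, 62.1 and 91.1 in SHR, 104, 95.2 and 86.3 in ACTH, and 96.3, 80.2 and 108 in WKY. SHR 1 and SHR 2 lay below all other arrays and SHR 3 lay among them. Its SHR difference from WKY was -0.42 ± 0.19 (adjusted p = 0.303), and that from ACTH was -0.43 ± 0.19 (adjusted p = 0.274), both of the sign of the probeset that was called. On the day that SHR 3 shared with the ACTH arrays the difference was -0.06. The plot of the markers shows these signals array by array.

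**Figure D1:**
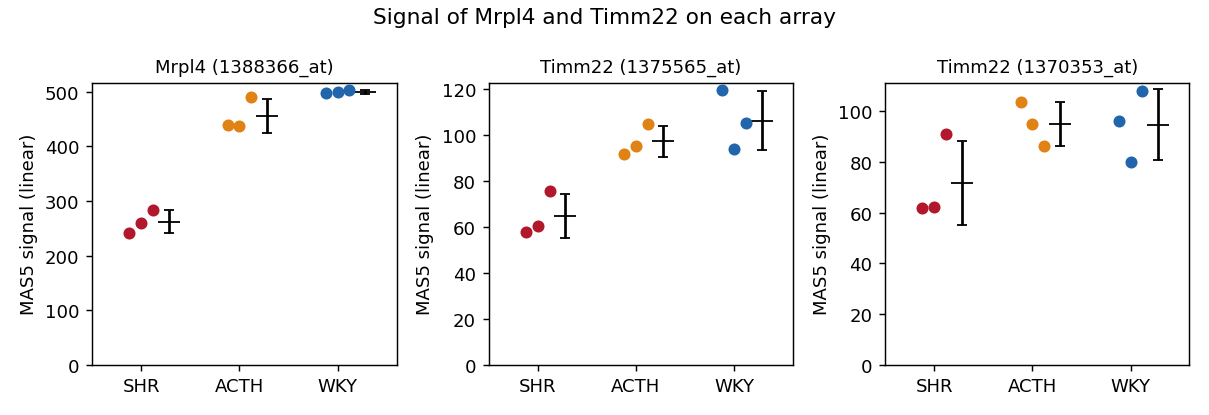
MAS5 signal (linear scale) of Mrpl4 and of both probesets of Timm22 on each array, for SHR, ACTH and WKY. Each point is 1 array and the bar gives the mean and SD; for Mrpl4 and for Timm22 1375565_at all 3 SHR arrays lie below every ACTH and WKY array, and for Timm22 1370353_at 1 SHR array, at 91.1, lies among them.

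RNA quality and scan day were not evenly spread over the groups. The 3'/5' signal ratio of GAPDH is read as a measure of RNA degradation, in which higher is more degraded. It was 3.57 to 5.16 in SHR, 3.67 to 4.52 in ACTH and 4.91 to 5.99 in WKY. That of beta-actin was 8.35 to 9.14 in SHR, 8.37 to 9.68 in ACTH and 9.77 to 13.6 in WKY. The RNA had been amplified repeatedly before hybridization, and the study calls its GAPDH ratios acceptable for such RNA. With the GAPDH ratio as a covariate Mrpl4 differed by -0.88 in SHR against WKY (adjusted p = 0.0949) and by -0.80 in SHR against ACTH (adjusted p = 0.0136). Under the same covariate Timm22 1375565_at differed by -0.60 in SHR against WKY (adjusted p = 0.355). Arrays were scanned on 4 days, and no scan day held both ACTH and WKY arrays. WKY 1 and WKY 3 were each the only array of their day. A block for scan day therefore compares WKY with SHR through WKY 2 alone, and with ACTH only by way of SHR. Between any pair of arrays log2 signals correlated at 0.917 to 0.979, so no array was a copy of another.

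Markers of other cell types were also set beside these genes, since fewer cells of a type and less RNA per cell cannot be told apart in RNA of a whole vessel. The 6 smooth muscle markers measured, which include Acta2, Myh11 and Tagln, were all well above the minimum, and none passed. Their sums, mostly Myh11 and Tagln, were 17088 to 18832 in SHR, 15709 to 17179 in ACTH and 15358 to 17758 in WKY. In SHR against WKY Lmod1, Acta2 and Cnn1 were lower, at -0.80, -0.47 and -0.19 on the log2 scale. Tagln, Myh11 and Smtn were at 0.23, 0.15 and 0.01. Of 11 skeletal muscle markers 3 met the minimum, Myh1, Acta1 and Myl1, and Ckm, Mb and Pvalb were among those that did not. The sum over all 11, mostly Acta1 and Myh1, was 1621 to 1684 in SHR, 1351 to 1441 in ACTH and 1241 to 1303 in WKY. In SHR against WKY Acta1 was called higher, at 0.92. Myl1 was at 1.05 (adjusted p = 0.0608) and Myh1 was lower, at -0.33 (adjusted p = 0.329). Of 8 fat markers, 6 on the array, 3 met the minimum and Ucp1, Plin1 and Lep did not. The sum over all 6 was 237 to 318 in SHR, 510 to 758 in ACTH and 323 to 473 in WKY. Cidea was called lower in SHR against both other groups, and Cfd was called higher in ACTH against WKY. Against WKY the SHR difference of Cidea was -1.90 on the log2 scale. Fabp4 and Cfd went the other way, at 1.38 (adjusted p = 0.243) and 1.21 (adjusted p = 0.226). Endothelial markers summed to 1314 to 1475 in SHR, 1439 to 1686 in ACTH and 1600 to 1810 in WKY. In SHR against WKY Emcn was called higher, at 1.15, and Vwf was called lower, at -1.28. Pecam1, Kdr and Nos3 were at 0.54, 0.87 and 0.27 without a call, so that Vwf alone was lower. The sums of the 4 macrophage markers were 244 to 309 in SHR, 339 to 422 in ACTH and 157 to 275 in WKY, with Cd14 called lower in SHR against ACTH, and those of the 3 Schwann cell markers overlapped between all groups. The part of these differences in the signals of Mrpl4 and Timm22 was not tested.

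Across the members as a whole, most differences were small. Over the 89 member genes the median absolute log2 difference was 0.14 in SHR against WKY and 0.12 in ACTH against WKY. Over all 6898 genes it was 0.19 and 0.16. In SHR against ACTH it was 0.18 for the member genes and 0.19 for all genes, so that the members were close to all genes there. In SHR against WKY 94 of 97 fitted log2 differences lay within 0.5 of 0, the exceptions being Mrpl4, Timm22 1375565_at and Mrps31. In ACTH against WKY 96 did, all but Mrps15, and in SHR against ACTH 92 did. For 95 member probesets (97.9%) the 95% interval of the SHR difference from WKY lay inside a change of 2-fold in either direction, against 85.8% of all probesets, and for 96 (99%) that of the ACTH difference did, against 88.4%. For 92 (94.8%) the interval of the SHR difference from ACTH did, against 85.5%. The spread between arrays of a group had a median SD of 0.18 on the log2 scale over the members and 0.23 over all kept probesets, and the median SE of a member's difference was 0.16. At an unadjusted p under 0.05 there were 9 members in SHR against WKY (5 higher and 4 lower, where 16.4% of all probesets met this), 3 in ACTH against WKY (all lower, with 12.5% of all) and 14 in SHR against ACTH (10 higher and 4 lower, with 17.2% of all).

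**Figure D2:**
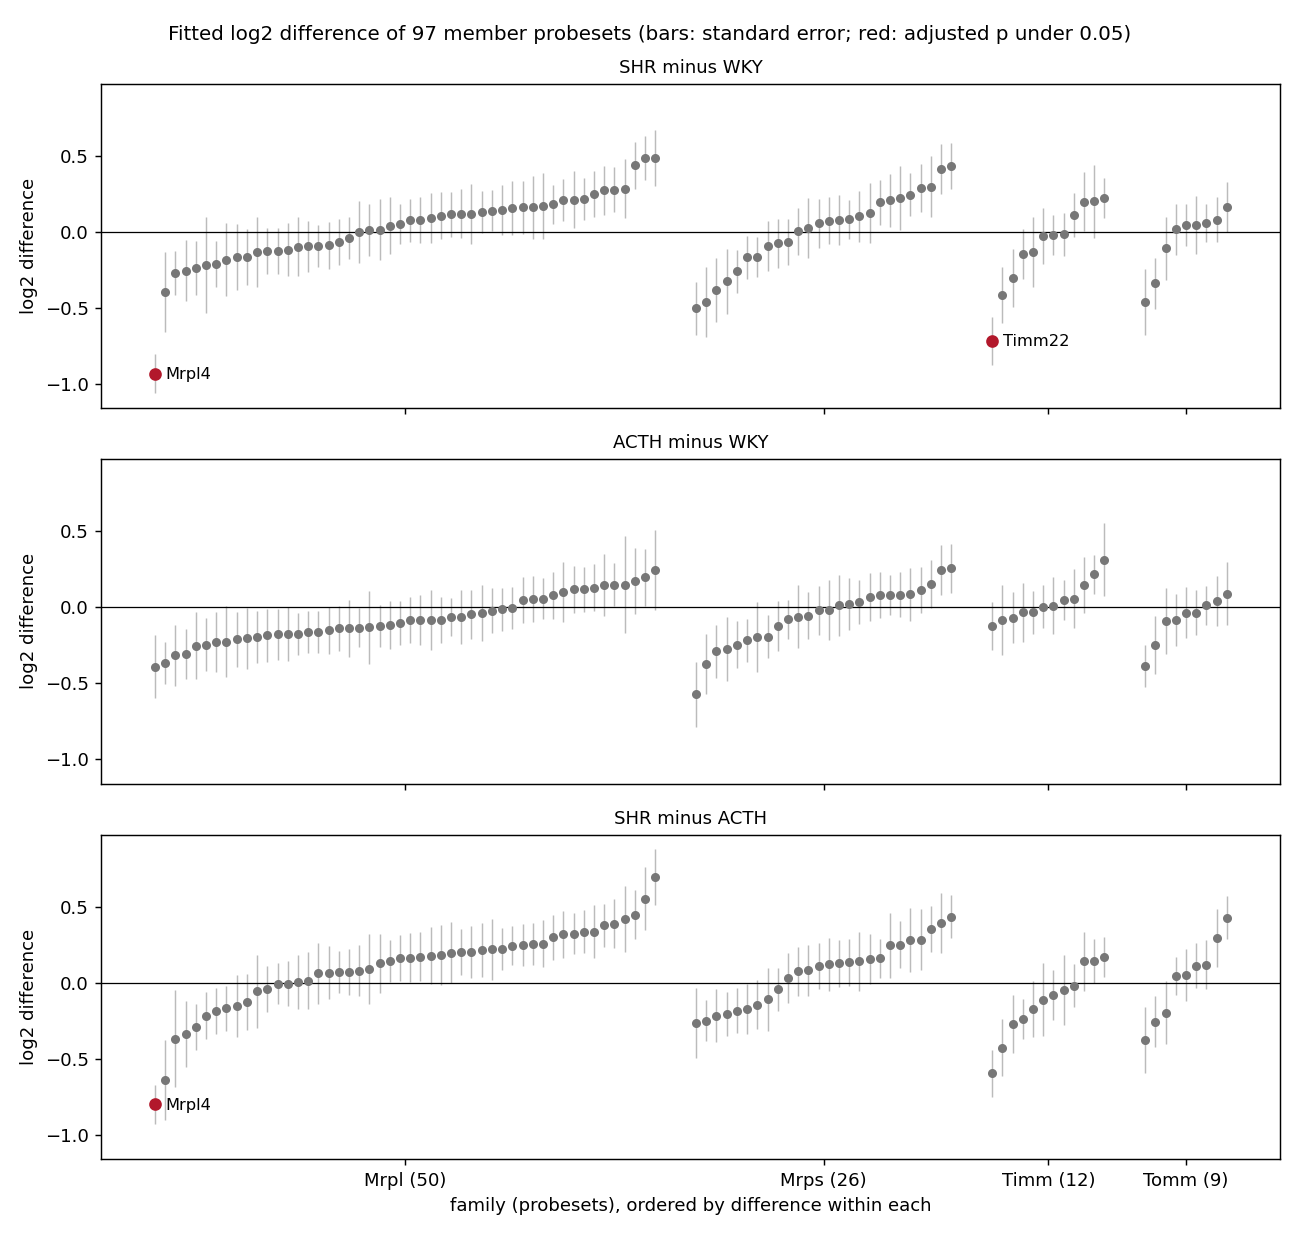
Fitted log2 difference of each of the 97 member probesets, ordered within the families Mrpl, Mrps, Timm and Tomm, for SHR minus WKY, ACTH minus WKY and SHR minus ACTH. Bars are standard errors and red points passed an adjusted p of 0.05: Mrpl4 at -0.93 and Timm22 at -0.72 against WKY, Mrpl4 at -0.80 against ACTH, and none in ACTH minus WKY.

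Taking the brightest probeset of each gene, the median log2 difference of the 89 member genes was 0.05 in SHR against WKY, with 52 genes above 0 and 37 below, where the median over 6898 genes was 0.00. In ACTH against WKY it was -0.06, with 32 above 0 and 57 below, where that of all genes was 0.02. In SHR against ACTH it was 0.11, with 57 above 0 and 32 below, against -0.02 for all genes. These comparisons share arrays, SHR against ACTH both with the others, and the medians are given as a description of the genes with no test. The sizes of the medians are of the order of the differences between arrays of 1 group: the median deviation of the member genes from their mean over all arrays was -0.03 to 0.11 on the SHR arrays, -0.09 to 0.03 on the ACTH arrays and -0.02 to 0.07 on the WKY arrays, and these ranges overlapped. Median centring and quantile normalization left the sign of all 3 medians as it was. A block for scan day did so too, although it compares WKY through WKY 2 alone. With the GAPDH ratio as a covariate the median in ACTH against WKY was 0.0015, with 45 of 89 genes above 0.

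By family, the 44 Mrpl genes had medians of 0.09 in SHR against WKY, -0.09 in ACTH against WKY and 0.17 in SHR against ACTH, with 32 of 44 genes below 0 in the ACTH comparison. The 26 Mrps genes had medians of 0.06, -0.02 and 0.12 in the same order. The 11 Timm genes had medians of -0.02, 0.00 and -0.08. That of SHR against WKY turned positive under median centring (0.0049) and with the GAPDH covariate (0.11), and that of ACTH against WKY turned negative under median centring (-0.01), quantile normalization (-0.0026) and the scan day block (-0.07). The 8 Tomm genes had medians of 0.03, -0.06 and 0.05, of which that of SHR against WKY turned negative with the scan day block (-0.10) and that of ACTH against WKY turned positive with the GAPDH covariate (0.03). The Mrpl and Mrps medians kept their signs under these 4 alternatives, but not all kept their size. With the GAPDH covariate the Mrpl median in ACTH against WKY was -0.02, with 19 of 44 genes above 0 in place of 12. The Mrps median in SHR against WKY was then 0.03, as was that of all genes. The dots of each family spread to both sides of 0 in every comparison.

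**Figure D3:**
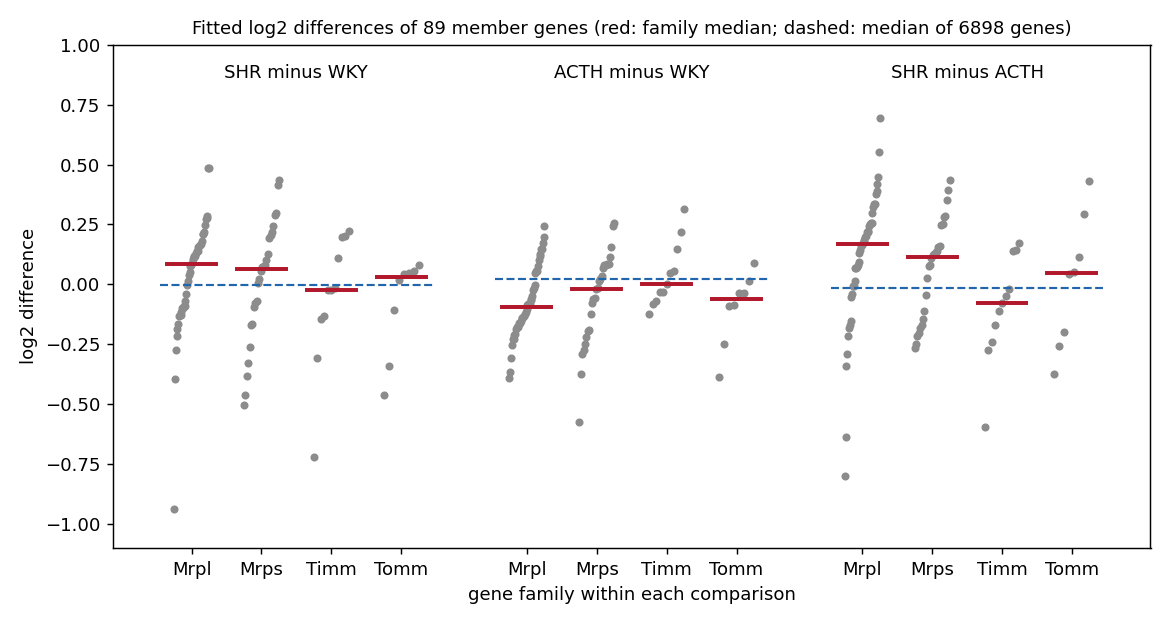
Fitted log2 differences of the 89 member genes (brightest probeset of each) by family and comparison. Each dot is a gene, the red line is the family median and the dashed line the median of all 6898 genes; family medians lie between -0.09 and 0.17, and those of all genes between -0.02 and 0.02.

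Among the large subunit proteins that did not pass, Mrpl3 had signals of 679, 598 and 500 in SHR, 447, 474 and 476 in ACTH, and 416, 425 and 419 in WKY. All SHR arrays were above all ACTH arrays and these above all WKY arrays, yet the SHR arrays spread widely, and the difference from WKY was 0.49 ± 0.14 (adjusted p = 0.13). Mrpl48 had 167, 193 and 201 in SHR, 106, 152 and 94.3 in ACTH, and 127, 133 and 139 in WKY. SHR lay above both groups, by 0.49 ± 0.18 on the log2 scale over WKY (adjusted p = 0.226) and by 0.70 ± 0.18 over ACTH (adjusted p = 0.0695), with the ACTH array at 152 nearest to SHR. Without ACTH 2 the difference of Mrpl48 from ACTH was 0.90 and passed (adjusted p = 0.0268). Mrpl45, which in mammals helps tie the ribosome to the inner membrane, had 189, 199 and 237 in SHR, 165, 175 and 157 in ACTH, and 219, 201 and 221 in WKY. Its ACTH arrays were the low ones, with a difference from WKY of -0.37 ± 0.14 (adjusted p = 0.303). Mrpl42 and Mrpl54, also large subunit proteins, had SHR differences from ACTH of 0.45 ± 0.16 (adjusted p = 0.19) and 0.55 ± 0.21 (adjusted p = 0.201). For Mrpl34, another of them, the SHR difference from ACTH was -0.64 ± 0.26 (adjusted p = 0.249). Mrpl18, the brightest Mrpl gene, had an SHR difference from WKY of -0.13 ± 0.15 (adjusted p = 0.729).

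Of the Mrps genes, none passed in any comparison. Mrps18b, of which mammals have several related forms, had signals of 166, 193 and 210 in SHR, 145, 170 and 131 in ACTH, and 130, 139 and 151 in WKY. SHR and WKY did not overlap, and the SHR difference from WKY was 0.44 ± 0.15 (adjusted p = 0.199). Mrps22 had 117, 124 and 122 in SHR, 87.1, 114 and 128 in ACTH, and 97.5, 83.1 and 92.9 in WKY, with a SHR difference from WKY of 0.41 ± 0.16 (adjusted p = 0.248). Its ACTH arrays overlapped with both other groups. Mrps31 had 73.9, 51.8 and 58.2 in SHR, 65.5, 67.4 and 79 in ACTH, and 89.6, 73.9 and 96.1 in WKY, and its SHR difference from WKY was -0.50 ± 0.17 (adjusted p = 0.188). The highest SHR array and the lowest WKY array of Mrps31 were nearly equal. Mrps15 had 68.6, 74.8 and 107 in SHR, 91.9, 62.8 and 56.8 in ACTH, and 110, 95.1 and 103 in WKY. All its ACTH arrays were below all WKY arrays, with a difference of -0.57 ± 0.22 (adjusted p = 0.305). Mrps7, a protein of the head of the small subunit, had 511, 498 and 493 in SHR, 350, 429 and 339 in ACTH, and 435, 385 and 452 in WKY, and its SHR difference from ACTH was 0.43 ± 0.14 (adjusted p = 0.142). Mrps11 had an ACTH difference from WKY of -0.37 ± 0.20 (adjusted p = 0.505) and an SHR difference from ACTH of 0.40 ± 0.20 (adjusted p = 0.345). Mrps6, the brightest Mrps gene, had an SHR difference from WKY of 0.19 ± 0.15 (adjusted p = 0.553).

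**Figure D4:**
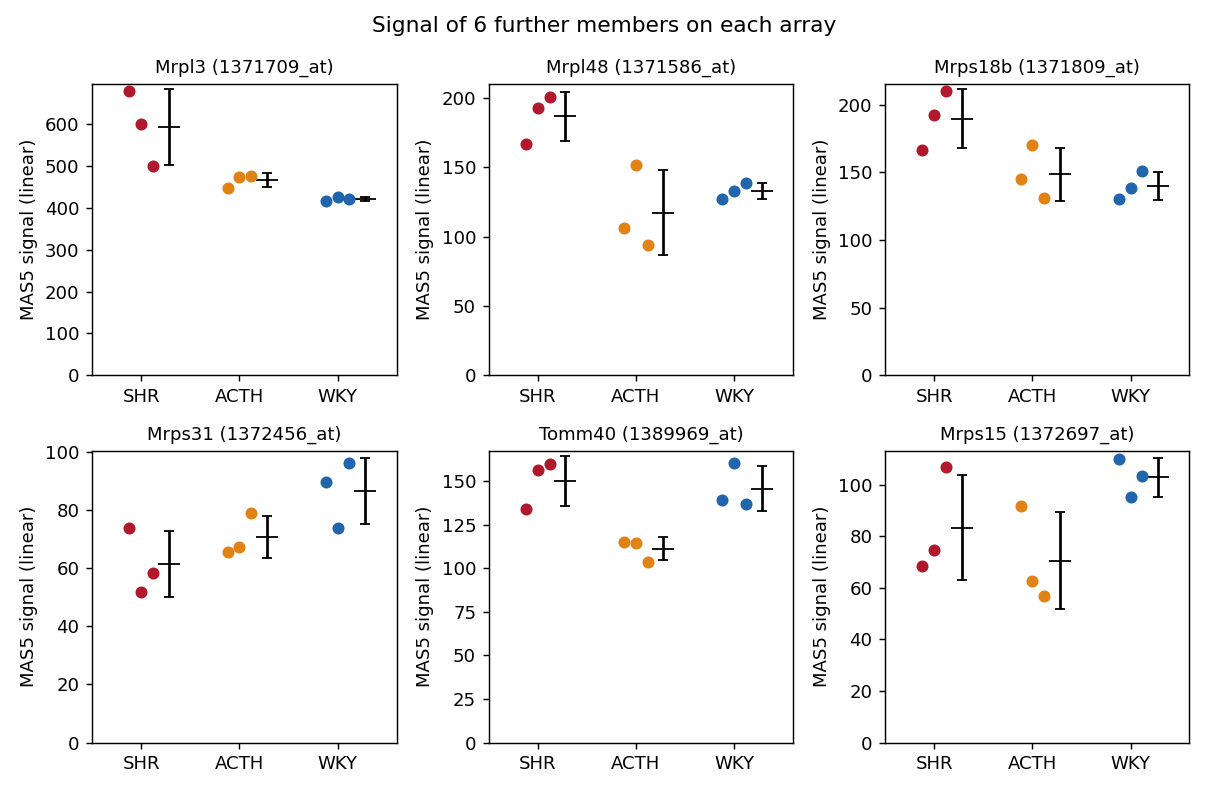
MAS5 signal (linear scale) of Mrpl3, Mrpl48, Mrps18b, Mrps31, Tomm40 and Mrps15 on each array, for SHR, ACTH and WKY, with the mean and SD. In Mrpl3 and Mrpl48 all SHR arrays lie above all others, in Tomm40 and Mrps15 all ACTH arrays lie below all WKY arrays, and none of the 6 passed in any comparison.

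In the outer membrane gate, Tomm40, its channel, had signals of 134, 157 and 160 in SHR, 115, 115 and 104 in ACTH, and 139, 160 and 137 in WKY. The ACTH arrays lay below all others. The difference of ACTH from WKY was -0.39 ± 0.14 (adjusted p = 0.271) and that of SHR from ACTH was 0.43 ± 0.14 (adjusted p = 0.137). Tomm7, a small subunit of the same complex, had an SHR difference from WKY of -0.34 ± 0.17 (adjusted p = 0.356), and Tomm6, another small subunit, had an ACTH difference from WKY of -0.25 ± 0.19 (adjusted p = 0.669).

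Among the inner membrane translocases, Timm17a, a core subunit of the TIM23 complex, had an SHR difference from WKY of 0.22 ± 0.13 (adjusted p = 0.43). Timm21, which links that complex to the TOM complex, had an ACTH difference from WKY of 0.31 ± 0.24 (adjusted p = 0.673). Timm29, a partner of Timm22 in the TIM22 complex, had an SHR difference from WKY of -0.02 ± 0.13 (adjusted p = 0.953) and an ACTH difference of 0.22 ± 0.13 (adjusted p = 0.566). For Timm10b, a small Tim protein bound to that complex, the SHR difference from WKY was -0.15 ± 0.17 (adjusted p = 0.705), and for Timm8b, a small Tim protein that works as a chaperone, it was -0.31 ± 0.19 (adjusted p = 0.462). The lower SHR signal of Timm22 thus stood without a call in these other Timm genes, and no test of the difference between genes was made.

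For 7 genes more than 1 probeset met the minimum, which allows the same gene to be read more than once. Tomm20, the receptor for presequences, had probeset 1398870_at at 595, 892 and 727 in SHR, 1029, 732 and 1116 in ACTH, and 1041, 821 and 1181 in WKY, with a SHR difference from WKY of -0.46 ± 0.22 (adjusted p = 0.323). Its probeset 1370785_s_at had 326, 293 and 290 in SHR, 284, 298 and 255 in ACTH, and 269, 223 and 329 in WKY, with a difference of 0.16 ± 0.16 (adjusted p = 0.659). The probesets of Tomm20 thus gave opposite signs, and in both the groups overlapped. Mrpl50 gave the same sign in both, with SHR differences from WKY of 0.44 ± 0.16 (adjusted p = 0.203) and 0.28 ± 0.20 (adjusted p = 0.501). In Mrpl51, with 3 probesets, the differences were 0.28 ± 0.15, 0.01 ± 0.17 and -0.24 ± 0.18. Mrpl40 had 0.00 ± 0.20 and -0.25 ± 0.20, Mrpl52 had 0.01 ± 0.20 and -0.16 ± 0.18, and Mrpl57 had 0.11 ± 0.15 and -0.22 ± 0.32, none of them called. Only Timm22 had a call among these genes, in 1 of its 2 probesets.

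**Figure D5:**
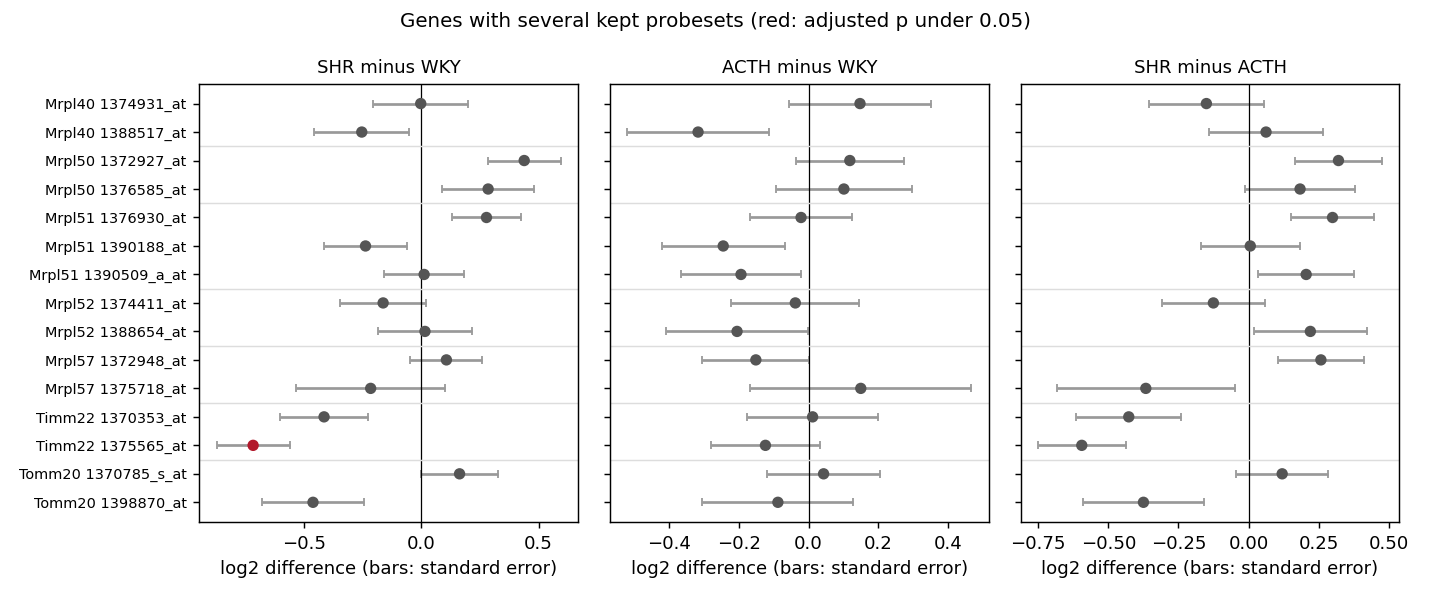
Fitted log2 difference and standard error of each probeset of the 7 genes with more than 1 kept probeset, for SHR minus WKY, ACTH minus WKY and SHR minus ACTH. Both Timm22 probesets lie below 0 in SHR minus WKY (-0.42 and -0.72, the second called, in red), and those of Tomm20 lie on opposite sides (0.16 and -0.46).

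Counted by separation of the arrays, without a test, 15 member probesets had SHR and WKY groups that did not overlap (10 higher and 5 lower in SHR), where 19.4% of all probesets did. In ACTH against WKY there were 10 (2 higher and 8 lower), where 20.5% of all did, and in SHR against ACTH 25 (17 higher and 8 lower), where 24.9% of all did. The member shares were 15.5%, 10.3% and 25.8%.

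Other genes of mitochondrial translation, import and genome upkeep were read from 6 lists of 94 genes, of which 48 met the minimum. In SHR against WKY 0 were higher and 1 was lower, where 2.04% of all probesets were called. In ACTH against WKY 0 passed by limma, against 1.21% of all. There 3 had an unadjusted p under 0.05, all lower, against 12.5% of all. In SHR against ACTH 0 were higher and 1 was lower, against 3.4% of all probesets called. That gene was Ssbp1, the single-stranded DNA binding protein of mitochondrial DNA replication, in the list of 6 measured genes of DNA upkeep and biogenesis. Ssbp1 had signals of 72.1, 55.2 and 69.2 in SHR, 154, 115 and 137 in ACTH, and 135, 106 and 108 in WKY. All SHR arrays were below all others, with a difference of -0.83 ± 0.17 from WKY (adjusted p = 0.0383) and of -1.05 ± 0.17 from ACTH (adjusted p = 0.0102). Like that of Timm22, the Ssbp1 call against WKY was lost without any 1 of SHR 1, SHR 2, SHR 3, ACTH 1, ACTH 3 and the 3 WKY arrays (adjusted p = 0.0504 to 0.138), and its call against ACTH was lost without ACTH 1 (adjusted p = 0.0539). A fit blocked by scan day lost both Ssbp1 calls (adjusted p = 0.348 against WKY and 0.21 against ACTH).

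The other 5 lists held no call. Among the 9 measured genes of ribosome assembly and rRNA processing the median SHR difference from WKY was -0.03. Rbfa, which matures the RNA of the small subunit, was at -0.72 (adjusted p = 0.0558) and Mtg2, a GTPase of large subunit assembly, at 0.49 (adjusted p = 0.207). The lowest of this list was Mettl17, at -1.02 (adjusted p = 0.439), with SHR signals spread from 8.49 to 63.7. Of 5 translation factors the median was 0.02, and Mtfmt, which formylates the initiator tRNA, was at -0.67 (adjusted p = 0.13). Among 3 tRNA synthetases Tars2, for threonine, was at -0.71 (adjusted p = 0.186). The 20 other import genes had a median of 0.03, with Mipep, a peptidase that trims imported proteins, at 0.55 (adjusted p = 0.161). The 5 ribosome subunits with other symbols had a median of -0.02, with Gadd45gip1 lowest at -0.74 (adjusted p = 0.359). In ACTH against WKY the 5 medians were -0.07, -0.04, 0.05, 0.04 and -0.17 for the lists in this order. Rbfa and Tars2 were low in that comparison too, at -0.59 (adjusted p = 0.146) and -0.64 (adjusted p = 0.306). Mtfmt, Mtg2 and Mipep were at -0.09, 0.0071 and -0.0032.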

How the data were processed

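Gene expression was measured on 9 RAE230A arrays, 3 each for SHR, ACTH-treated WKY and WKY. The deposited intensity values are MAS5 signals on a linear scale, 1 per probeset, scaled by the authors to a common target on each array; the deposited scan records, of other content, gave only the scan day (4 days). Gene symbols came from the platform table. Of 15923 probesets 57 are controls, and 9099 with a signal of 44.3 or more on 3 arrays were kept. A mean per group was fitted to log2 signals by limma 3.58.1 under R 4.3.3 (moderated by eBayes, no trend; 6 residual and 4.44 prior degrees of freedom), p-values being two-sided, adjusted by the Benjamini-Hochberg method over all kept probesets and called under 0.05. Labels state separate pools but not separate extractions, so p-values measure the spread between pools.

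Named genes were Mrpl4, Timm22, called members, the 3 lowest p per family and comparison, genes with several probesets and the brightest of each family; Mrpl34, Timm10b and genes of the 6 lists were named after their values were seen. The members and lists were chosen with earlier results of these data known. The fit was tested on simulated data. The number of arrays limits precision. Alternatives were other filters and normalizations, a pseudocount of 16, the methods' ANOVA without moderation, scan day and replicate number as blocks, the log2 GAPDH ratio of 3' to 5' signal as a covariate, and each array left out.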

Additional observations from a re-analysis of the deposited data

How the results depend on the processing

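The count of 2 members called in SHR against WKY was 0 with the GAPDH ratio as a covariate and with scan day as a block, and 1, Mrpl4, with no minimum signal, with median centring, with quantile normalization, with the methods' tests and with a mean signal of at least 100, which removes Timm22. In the F test it was 0 with no minimum signal and with scan day, and 1, Mrpl4, with the GAPDH covariate, a mean signal of 100, median centring, quantile normalization and the methods' tests. In SHR against ACTH it was 0 with no minimum signal and with scan day, and 2, Mrpl4 and Mrpl48, with a mean signal of 100 and with quantile normalization. With the replicate block, in which same-numbered arrays deviated together by a correlation of -0.07 to 0.13 and so were not taken as pairs, 1 member was called in SHR against WKY and 1 in the F test, Mrpl4 in both. Calls over the whole array moved as well. In SHR against WKY the main fit called 186 of 9099 probesets, the GAPDH covariate 34 and no minimum signal 72. Median centring called 180, quantile normalization 174 and the methods' tests 90. In SHR against ACTH the main fit called 309 and no minimum signal 52, and in the F test 373 and 63. With scan day as a block calls also fell over the whole array. Leaving out 1 array gave 1 to 2 member calls in SHR against WKY, 1 to 2 in SHR against ACTH, 1 to 2 in the F test and 0 in ACTH against WKY. Without 1 array Mrpl4 kept its call in both comparisons, with SHR differences of -0.99 to -0.88 from WKY (adjusted p = 0.0101 to 0.0211) and -0.86 to -0.74 from ACTH (adjusted p = 0.013 to 0.0497), and Timm22 1375565_at ranged from -0.84 to -0.63 against WKY (adjusted p = 0.0339 to 0.147). The median of the member genes in ACTH against WKY was 0.0015 with the GAPDH covariate. The other alternatives moved the medians over all 89 member genes by less than the SD between arrays, while family medians of Timm and Tomm near 0 turned sign as given above. No difference of a member listed at an unadjusted p under 0.05 changed its sign under any alternative run. The cause of these shifts was not tested. In SHR the signals of both Timm22 probesets, 57.9 to 91.1, lay near the minimum of 44.3.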

Other observations

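The genes that lie beside Mrpl4 and Timm22 on their chromosomes were read after the values were seen, 10 protein-coding genes on either side in the order of RefSeq. Beside Mrpl4, on chromosome 8, 9 genes were measured and none passed by limma in SHR against WKY. Their log2 differences ranged from -0.79 to 0.18 with a median of -0.23, and 1 had an unadjusted p under 0.05, Keap1, a regulator of the oxidative stress response, at -0.46 (adjusted p = 0.254). Over all probesets 16.4% had an unadjusted p under 0.05 in this comparison. The immediate neighbours on the array were S1pr2, a receptor for sphingosine phosphate, at 0.12 (adjusted p = 0.788) and Icam1, an adhesion molecule of endothelium, at -0.23 (adjusted p = 0.52). Beside Timm22, on chromosome 10, 10 genes were measured, none passed and 0 had an unadjusted p under 0.05, with differences of -0.49 to 0.23 and a median of -0.04.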
